A study of Homo sapiens with 6 samples.

Results

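A list of 35 genes that the tumour suppressor p53 is known to activate directly was followed in HCT116 cells, to ask whether the higher RNA level of CDKN1A after knockdown of STBD1 was shared by the other targets of p53. All 35 symbols matched 1 gene each among the 58395 genes of the files, and 33 of them were among the 15566 genes with enough reads to be tested. HCT116 cells come from a human colorectal carcinoma and carry wild-type p53. The cells carried a lentiviral short hairpin RNA, either a non-target hairpin (shControl, 3 biological replicates) or a single hairpin against STBD1 (shSTBD1, 3 biological replicates), and were kept by drug selection after infection. STBD1 is a glycogen-binding protein that has been proposed to deliver glycogen to autophagosomes. With 1 hairpin per arm, an effect of STBD1 and an effect of that hairpin on other transcripts cannot be told apart. RNA-seq of bulk cells also cannot tell fewer cells that use a gene from less RNA of that gene per cell.

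p53 is a transcription factor that binds DNA as a tetramer and is kept scarce in unstressed cells by MDM2, a ubiquitin ligase whose own gene p53 switches on. When DNA is damaged or growth signals are abnormal, p53 builds up and raises the transcription of genes for cell cycle arrest, DNA repair, cell death, redox control and its own feedback. CDKN1A encodes p21, an inhibitor of cyclin-dependent kinases, and is the textbook target through which p53 halts the cell cycle.

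The element p53 binds consists of 2 arms of 10 bases, each with 3 purines, a C, 2 bases that are A or T, a G and 3 pyrimidines. This element is its own reverse complement, so a search of 1 strand covers both. Matches of the 2 arms with no spacer, with at most 2 mismatches and with none at the C and G of either arm, were sought within 5000 bases of the start of each gene's canonical transcript (GRCh38, GENCODE 44). Such a match lay near 14 of the 33 tested targets (42.4%) and near 1230 of the 15464 tested genes with a start site (8.0%). With at most 1 mismatch the shares were 18.2% and 1.1%. The list was drawn up from what is known of p53 binding, so this difference describes the list and was not tested. Printed below are the matches of 6 of the 7 higher targets that had one (that of RRM2B, with 1 mismatch, is not printed). Those of PLK2, which was lower, and ZMAT3, which was not called, are added as the 2 targets with a perfect match. The other uncalled targets with a match (AEN, CCNG1, CMBL, FAS and SPATA18) had 1 or 2 mismatches and are not printed. The printed matches are written along the strand of the gene with the C and G of each arm in capitals.
CDKN1A: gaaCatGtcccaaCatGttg
GADD45A: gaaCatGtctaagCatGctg
DDB2: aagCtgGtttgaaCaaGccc
MDM2: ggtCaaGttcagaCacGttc
GDF15: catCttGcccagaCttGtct
BTG2: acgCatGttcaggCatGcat
PLK2: aaaCatGcctggaCttGccc
ZMAT3: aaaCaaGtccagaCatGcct

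The CDKN1A match (chr6:36676449-36676468, gene on the plus strand, 2 mismatches) was centred at -2255 bases from the canonical start, across the outermost annotated edge of the gene. The GADD45A match (chr1:67686775-67686794, plus strand, 1 mismatch) lay in an intron at 1584 bases, and the MDM2 match (chr12:68808923-68808942, plus strand, 2 mismatches) in an intron at 756 bases. The DDB2 match (chr11:47214969-47214988, plus strand, 1 mismatch) was centred at 5 bases, in an exon. Upstream of the canonical start were the matches of GDF15 (chr19:18385308-18385327, plus strand, 2 mismatches, at -840 bases, in an intron of a longer transcript), BTG2 (chr1:203303642-203303661, plus strand, 2 mismatches, at -1867 bases, outside the gene) and PLK2 (chr5:58462274-58462293, minus strand, 0 mismatches, at -2197 bases, outside the gene). ZMAT3 had its match (chr3:179070188-179070207, minus strand, 0 mismatches) in an intron at 1612 bases. As the values below show, a match was found near 7 of the 10 targets that were higher in shSTBD1 cells and near PLK2, the only target that was lower. It was also found near 6 of the 22 that did not pass the test, and near 8.0% of all tested genes. CDKN1A, already known to be higher, is among the 7. Which targets were called higher depended on the setting, and this split was not tested. PLK2 and ZMAT3, the 2 targets with a perfect match, were thus not among those that rose.

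Libraries held between 17689097 and 21668274 expected counts. Levels are given as CPM, the counts scaled to a common library size, which compare a gene between libraries, or as TPM, which are also divided by length and allow genes to be compared with each other. Changes are log2 fold changes of shSTBD1 against shControl with their standard errors (SE), tested by edgeR's quasi-likelihood F-test over all 6 libraries with the Benjamini-Hochberg adjustment over all 15566 genes, and a gene was called higher or lower at an adjusted p under 0.05. STBD1, the targeted gene, had 16.2, 15.7 and 14.4 CPM in the shControl libraries and 11.6, 9.06 and 9.18 CPM in the shSTBD1 libraries. It was lower in every shSTBD1 library than in any shControl library, and fell by 0.64 on the log2 scale (SE 0.10, edgeR adjusted p = 2.9e-04). The call held in 6 of the 8 other settings and was lost with limma on TPM (limma adjusted p = 0.065 and 0.067 with 1 or 0.1 added). STBD1 shares 88.5% of its exon bases with the read-through gene FAM47E-STBD1, so its count depends on how reads were divided between them. Markers of colon epithelium were read beside the label of the cells, and only a part of this list was present. EPCAM, KRT8, KRT18, KRT19, CDH1, CLDN3 and CLDN4 were present, whereas TSPAN8, LGALS4 and VIL1 stayed at or under 0.31 CPM. The leukocyte markers PTPRC and CD3E and the fibroblast marker LUM had no count in any library. Summed levels were 1.75 to 2.32 CPM over 6 leukocyte markers and 1.20 to 1.71 CPM over 4 endothelial markers. They were 31.3 to 40.9 CPM over 6 fibroblast markers, nearly all of it COL1A1. Only 1 leukocyte, 2 endothelial and 1 fibroblast markers had enough reads to be tested, and none of these was called.

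CDKN1A rose clearly. Its level was 257, 265 and 266 CPM in the shControl libraries and 355, 366 and 356 CPM in the shSTBD1 libraries. The 2 groups were far apart, and the spread within each was small, with means of 263 ± 4.88 and 359 ± 6.13 CPM (SD, n = 3 each). The log2 fold change was 0.45 (SE 0.03, 95% interval 0.39 to 0.51, edgeR adjusted p = 6.9e-08), a 1.37-fold higher level. CDKN1A ranked 19th by p among all tested genes and 198th by size of change among the 1280 genes called higher. An exact permutation test of CDKN1A alone over the 10 divisions of the libraries gave p = 0.1 (two-sided), the smallest value that 3 against 3 libraries allow. The call held in all 8 other settings and in all 6 fits that left out a library, with log2 fold changes from 0.41 to 0.46. CDKN1A was already known to be higher when the list was drawn up, so its own rise only sets the size with which the other targets are compared.

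**Figure D1:**
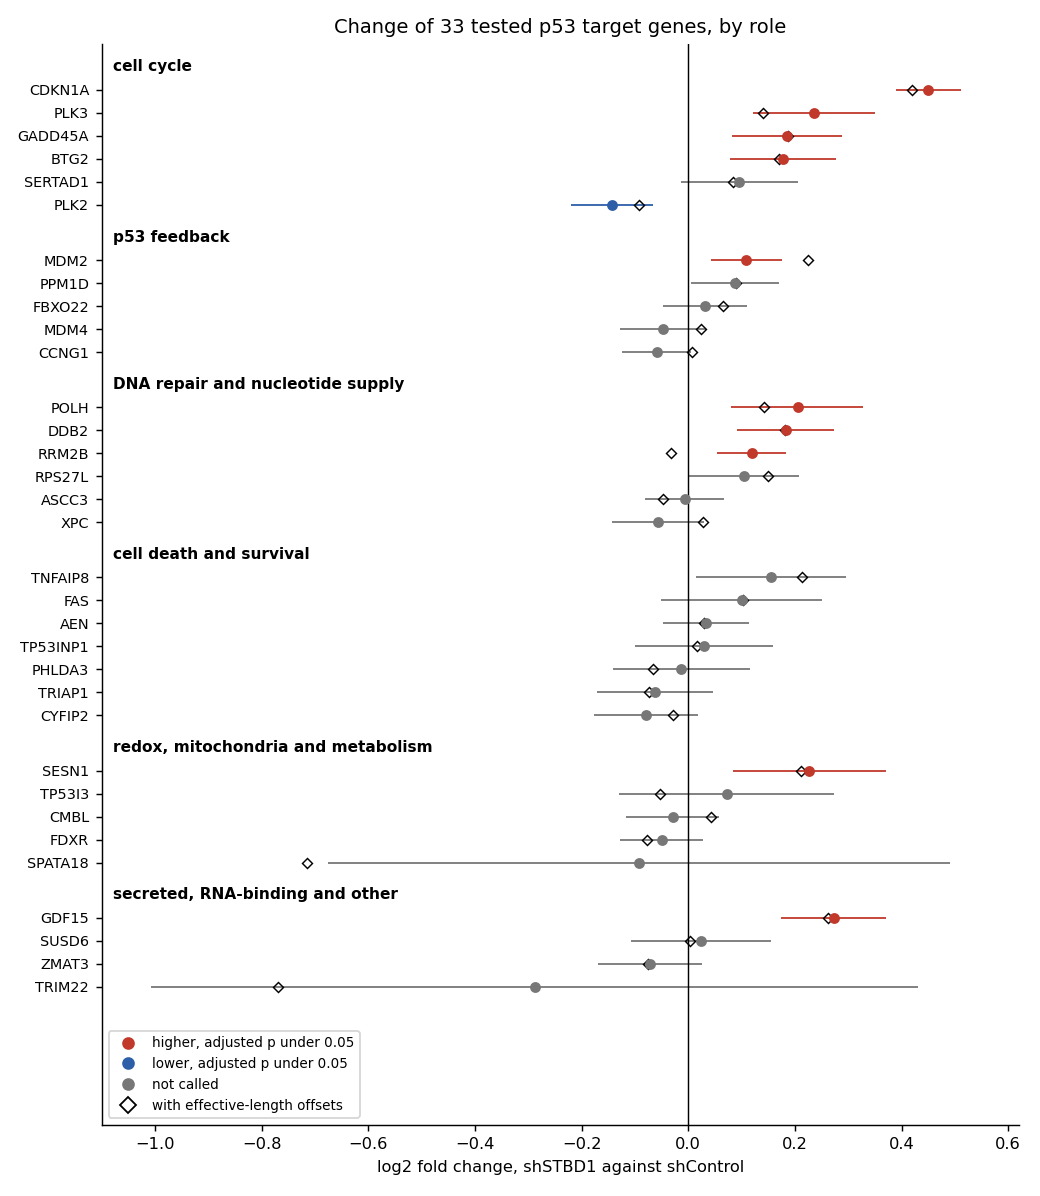
Log2 fold change of shSTBD1 against shControl (horizontal axis) for the 33 tested p53 targets, grouped by role. Circles and bars give the edgeR estimate with its 95% interval, red for higher, blue for lower and grey for not called, and open diamonds give the estimate with offsets for effective length. CDKN1A lies at 0.45, the other called genes between -0.14 and 0.27, and the diamond of RRM2B on the other side of 0.

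The rise was shared by a minority of the targets and at a smaller size. Of the 33 tested targets, 11 were called (33.3%), 10 higher and 1 lower, where 15.8% of all tested genes were called in either direction, 8.22% higher and 7.54% lower. Leaving CDKN1A aside, 9 of 32 were higher (28.1%) and 1 was lower. The 9 other higher targets rose between 1.08-fold and 1.21-fold, and the upper bound of the 95% interval lay under the lower bound of CDKN1A for 30 of the 32 other targets. The exceptions were SPATA18 and TRIM22, whose low counts gave wide intervals. No test of the difference between genes was run. The median log2 fold change of the 33 targets was 0.03, against 0.00 for all tested genes, and 20 of the 33 changed upwards, against 7896 of 15566. Part of the study's criterion was an unadjusted DESeq2 p under 1e-05. With that threshold on the unadjusted edgeR p, CDKN1A was the only target called. Of all tested genes 2.38% passed it, and 1.43% passed and were higher. That CDKN1A stood alone at this threshold holds for edgeR only. The targets were not counted at this threshold with DESeq2, where GDF15 had a DESeq2 adjusted p of 1.3e-04 and may pass it as well. By the libraries themselves, 13 targets had every shSTBD1 value above every shControl value, 2 had every one below and 18 overlapped, where 17.4% of all tested genes were fully above and 16.3% fully below.

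**Figure D2:**
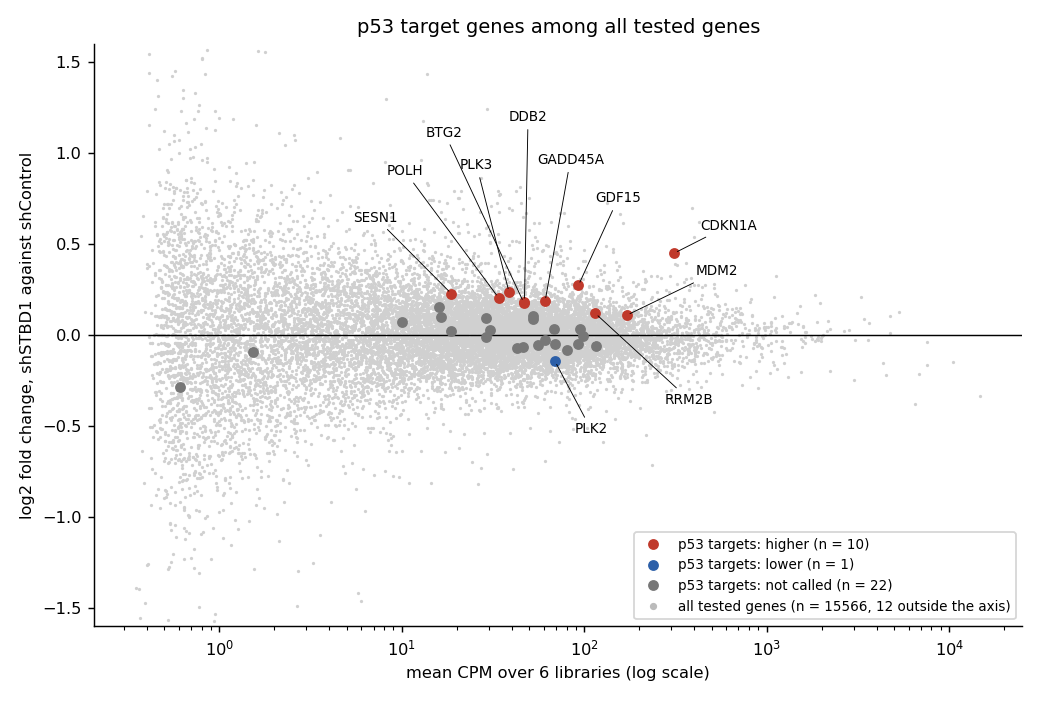
Log2 fold change of shSTBD1 against shControl (vertical axis) against mean CPM over the 6 libraries (horizontal axis, log scale). Grey dots are the 15566 tested genes, of which 12 lie outside the axis. Large dots are the 33 tested p53 targets, and CDKN1A stands above the other targets at 0.45 while the 22 grey targets lie on both sides of 0.

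How many targets were called depended on the libraries and on the scaling. Without shSTBD1 replicate 3 only CDKN1A and GDF15 of the 33 remained, where 9.75% of all tested genes were called. There were 4 without shSTBD1 replicate 1 (10.4% of all genes), 5 without shSTBD1 replicate 2 (9.28%) and 5 without shControl replicate 2 (14.6%). Without shControl replicate 1 or 3 there were 9 each (16.8% and 12.0% of all genes). DESeq2 called 5 (CDKN1A, GDF15, PLK3, GADD45A and DDB2), where it called 10.9% of all genes. With offsets for the effective length that RSEM estimated in each library, CDKN1A was the only target called, where 3.29% of all genes passed.

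**Figure D3:**
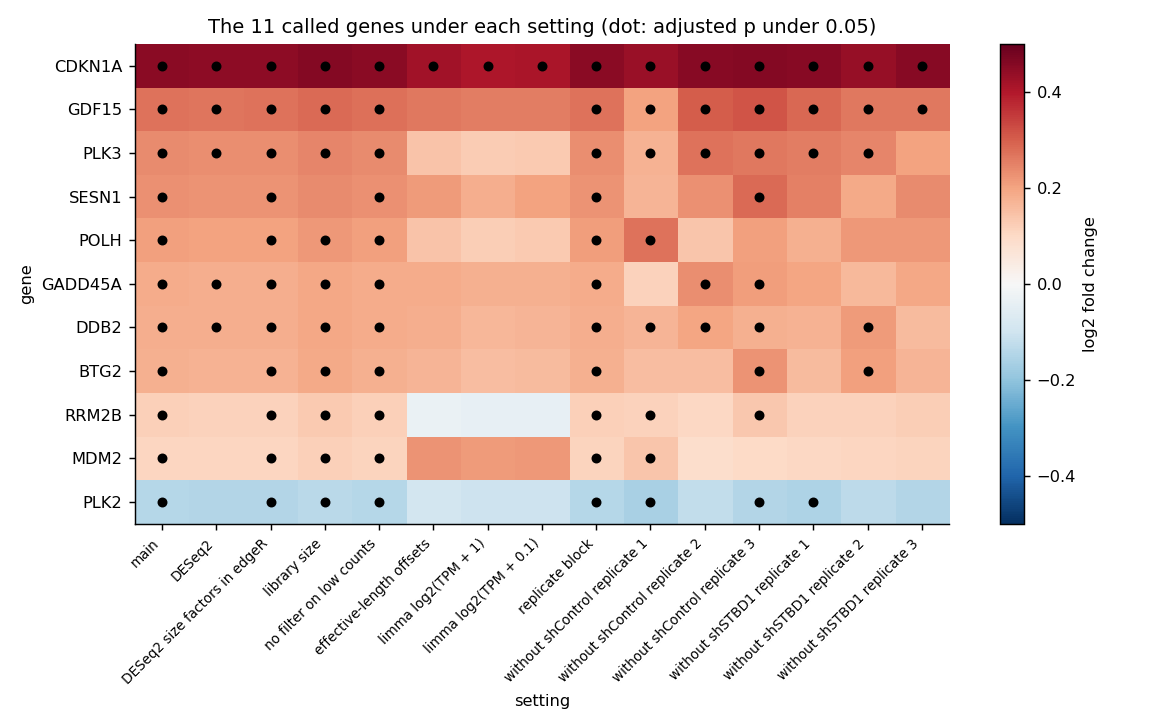
Log2 fold change (colour, red for higher and blue for lower in shSTBD1) of the 11 called p53 targets (rows) under the main setting, the 8 other settings and the 6 fits that left out a library (columns). A black dot marks an adjusted p under 0.05. The row of CDKN1A has a dot in every column, GDF15 in all but the 3 columns per length, and RRM2B changes colour in those 3.

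Of the 6 targets that act on the cell cycle, 4 (66.7%) were higher and 1 (16.7%) was lower. CDKN1A, whose rise was known when the list was drawn up, is among the 4, so the share of higher targets was partly set in advance. The others of the 4 were PLK3, GADD45A and BTG2. The shares of all tested genes were 8.22% and 7.54%, and SERTAD1 did not pass the test. After CDKN1A the largest change was that of PLK3, a kinase of the stress response. PLK3 had 32.5, 37.2 and 36.9 CPM in the shControl libraries and 40.4, 41.3 and 43.8 CPM in the shSTBD1 libraries. All 3 shSTBD1 libraries were above all 3 shControl libraries, although shControl replicate 1 was set apart from the other two, and the log2 fold change was 0.24 (SE 0.06, edgeR adjusted p = 0.012). It was 0.14 with offsets for effective length and no longer passed the test (edgeR adjusted p = 0.44), nor did it without shSTBD1 replicate 3. GADD45A, which binds PCNA and p21 and slows growth after DNA damage, had 51.7, 60.5 and 59.1 CPM in the shControl libraries and 63.7, 66.9 and 64.2 CPM in the shSTBD1 libraries. Here too the groups did not overlap and shControl replicate 1 was the lowest (log2 fold change 0.19, SE 0.05, edgeR adjusted p = 0.025), and without that library the change was 0.12. The call of GADD45A was lost in 4 of the 6 fits that left out a library, those without shControl replicate 1 or without any one of the shSTBD1 replicates.

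BTG2, an antiproliferative protein that recruits the deadenylase complex to mRNA, had 42.3, 42.3 and 46.6 CPM in the shControl libraries and 50.7, 47.5 and 50.1 CPM in the shSTBD1 libraries. The gap between the groups was narrow, since shControl replicate 3 came close to shSTBD1 replicate 2, and the log2 fold change was 0.18 (SE 0.05, edgeR adjusted p = 0.026). PLK2, a kinase related to PLK3, went the other way. It had 71.1, 74.3 and 72.2 CPM in the shControl libraries and 66.6, 64.6 and 66.0 CPM in the shSTBD1 libraries. Every shSTBD1 library was below every shControl library, and PLK2 fell by 0.14 on the log2 scale (SE 0.04, edgeR adjusted p = 0.019), and by 0.09 with offsets for effective length, where it was not called (edgeR adjusted p = 0.70). The calls of BTG2 and PLK2 each held in 3 of the 6 fits that left out a library. SERTAD1, which binds CDK4, had a log2 fold change of 0.10 (edgeR adjusted p = 0.27), with groups that did not overlap.

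**Figure D4:**
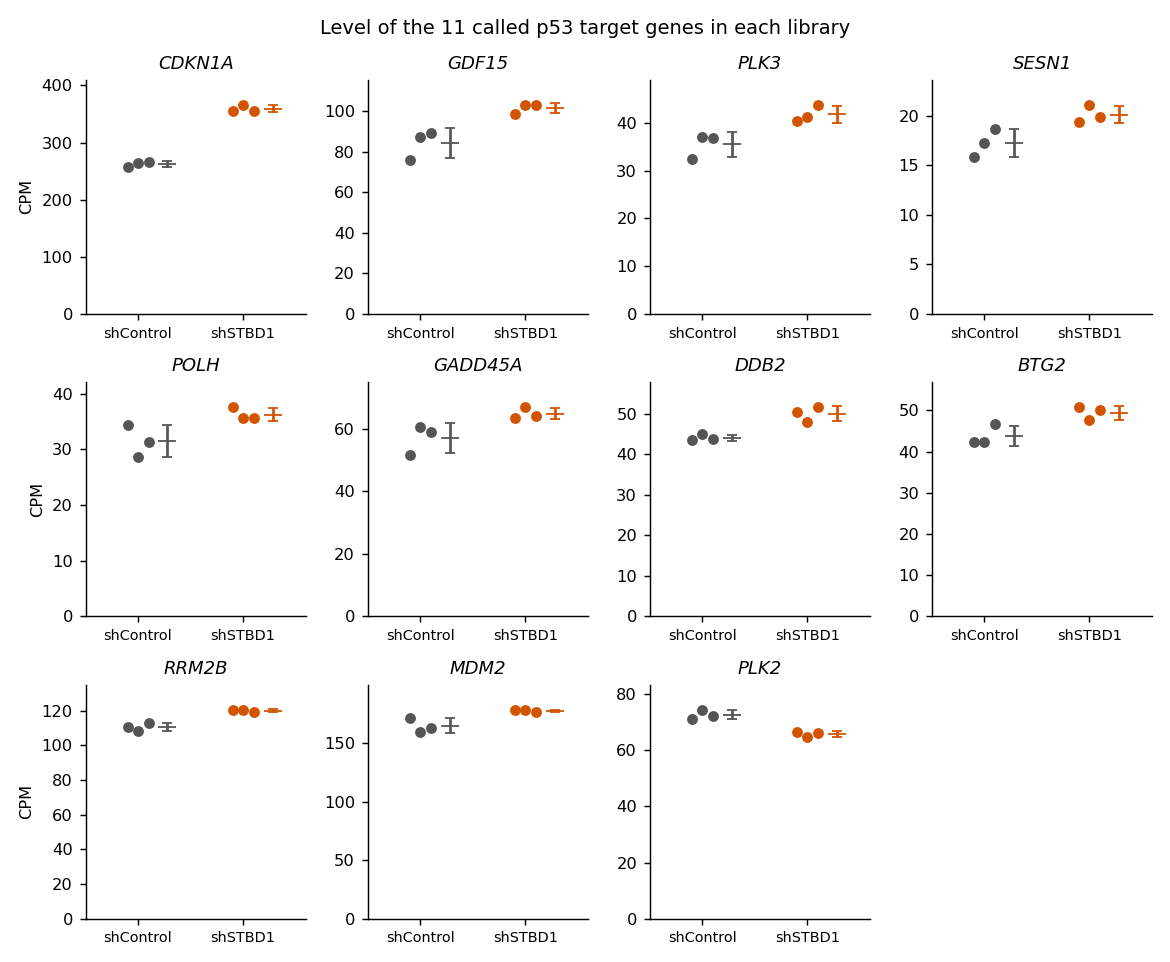
CPM (vertical axis, from 0) of the 11 called p53 targets in each of the 3 shControl libraries (grey) and the 3 shSTBD1 libraries (orange). Dots are libraries in the order of replicates 1 to 3, and bars give the mean with its SD. In every panel the 2 groups do not overlap, and only PLK2 is lower in shSTBD1.

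Of the 5 targets that feed back on p53, only MDM2 passed the test. MDM2 had 172, 159.8 and 163 CPM in the shControl libraries and 179, 178 and 177 CPM in the shSTBD1 libraries. The shSTBD1 libraries were tightly grouped just above the highest shControl library, and the log2 fold change was 0.11 (SE 0.03, edgeR adjusted p = 0.038). This call was lost in 5 of the 6 fits that left out a library and under DESeq2 (adjusted p = 0.067). With offsets for effective length the log2 fold change of MDM2 was larger, 0.23, but did not pass the test (edgeR adjusted p = 0.22). MDM2 shares 14.7% of its exon bases with other genes, among them a gene on the opposite strand. Other targets share exon bases with the opposite strand too, among them CDKN1A (4.9%), XPC (24.6%) and FBXO22 (16.2%). The strand setting of the counting is not given in the sources used here. PPM1D, a phosphatase that turns p53 signalling off, had a log2 fold change of 0.09 (edgeR adjusted p = 0.17) with groups that did not overlap, and CCNG1, cyclin G1, one of -0.06 (edgeR adjusted p = 0.24), also without overlap. MDM4, the relative of MDM2 that masks the activation domain of p53, and FBXO22, a subunit of a ubiquitin ligase, had log2 fold changes of -0.05 and 0.03 with overlapping groups. The estimates of MDM4 and CCNG1 were above 0 with effective length as an offset.

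Among the 6 targets for DNA repair and nucleotide supply, 3 were higher. DDB2, the subunit that recognises ultraviolet damage, had 43.4, 44.9 and 43.8 CPM in the shControl libraries and 50.5, 48.0 and 51.6 CPM in the shSTBD1 libraries. The shControl libraries lay within a narrow band under all shSTBD1 libraries, and the log2 fold change was 0.18 (SE 0.05, edgeR adjusted p = 0.014), a call that held in 4 of the 6 fits that left out a library. POLH, the DNA polymerase that copies past ultraviolet damage, had 34.3, 28.7 and 31.4 CPM in the shControl libraries and 37.6, 35.6 and 35.6 CPM in the shSTBD1 libraries. Its shControl libraries were spread widely and the highest came close to the shSTBD1 libraries, and the log2 fold change of 0.21 (SE 0.06, edgeR adjusted p = 0.036) passed the test in 1 of the 6 fits that left out a library.

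RRM2B, a subunit of the ribonucleotide reductase that supplies nucleotides for repair, had 111, 108 and 113 CPM in the shControl libraries and 120.3, 121 and 119 CPM in the shSTBD1 libraries. Both groups were tight and did not overlap, and the log2 fold change of the counts was 0.12 (SE 0.03, edgeR adjusted p = 0.023). The direction of this gene did not hold per length. RSEM's effective length of RRM2B was 3629, 4138 and 3940 bases in the shControl libraries and 4338, 4102 and 4419 bases in the shSTBD1 libraries, and with it as an offset the log2 fold change was -0.03 (edgeR adjusted p = 0.82). The call on the counts held in 2 of the 6 fits that left out a library. XPC and ASCC3, of damage recognition and of helicase repair, had log2 fold changes of -0.06 and -0.01, and RPS27L, a relative of a ribosomal protein, one of 0.10 (edgeR adjusted p = 0.20), all with overlapping groups and with XPC above 0 per length.

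None of the 7 tested targets of cell death and survival passed the test by edgeR, and 1 of them, TNFAIP8, had an unadjusted p under 0.05. DESeq2, limma on TPM and the fits without 1 library also called none of them. FAS, the death receptor of the CD95 ligand, had 15.3, 15.6 and 16.7 CPM in the shControl libraries and 18.4, 15.8 and 16.9 CPM in the shSTBD1 libraries. Its groups overlapped, and the log2 fold change of 0.10 had a 95% interval from -0.05 to 0.25, which still allows a change as large as that of many called targets. TNFAIP8, which lowers caspase activity, was at 0.16 on the log2 scale with groups that did not overlap (edgeR adjusted p = 0.16). AEN, a nuclease of apoptosis, was at 0.03, TP53INP1 at 0.03, PHLDA3, which blocks AKT at the membrane, at -0.01, TRIAP1, a mitochondrial survival factor, at -0.06 and CYFIP2 at -0.08, all with overlapping groups. The eighth, EDA2R, a receptor of the tumour necrosis factor family, had between 0 and 3 expected counts per library and was not tested.

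Among the 5 targets of redox control, mitochondria and metabolism, SESN1 alone was called. SESN1, a sestrin that restrains mTORC1, had 15.8, 17.2 and 18.6 CPM in the shControl libraries and 19.4, 21.1 and 19.9 CPM in the shSTBD1 libraries. The groups were close to each other, with shControl replicate 3 just under shSTBD1 replicate 1, and the log2 fold change of 0.23 (SE 0.07, edgeR adjusted p = 0.045) passed in 1 of the 6 fits that left out a library. TP53I3, a quinone oxidoreductase, was at 0.07 on the log2 scale, CMBL at -0.03, FDXR, the reductase of mitochondrial ferredoxin, at -0.05, and SPATA18, of mitochondrial quality control, at -0.09. The estimates of TP53I3 and CMBL changed sign per length.

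GDF15, a secreted stress cytokine, was the only one of the 4 other tested targets that was called. It had 75.8, 87.5 and 89.3 CPM in the shControl libraries and 98.8, 103 and 103 CPM in the shSTBD1 libraries. All shSTBD1 libraries were above all shControl libraries, of which replicate 1 was the lowest, and the log2 fold change was 0.27 (SE 0.05, edgeR adjusted p = 0.0015), the largest after CDKN1A. This call held in all 6 fits that left out a library and under DESeq2, but not with offsets for effective length (log2 fold change 0.26, edgeR adjusted p = 0.069). ZMAT3, an RNA-binding protein, was at -0.07 on the log2 scale, SUSD6 at 0.02 and TRIM22, an antiviral ubiquitin ligase, at -0.29 from under 1 CPM in each library. PADI4, which converts arginine to citrulline in histones, had between 0 and 3 expected counts per library and was not tested.

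**Figure D5:**
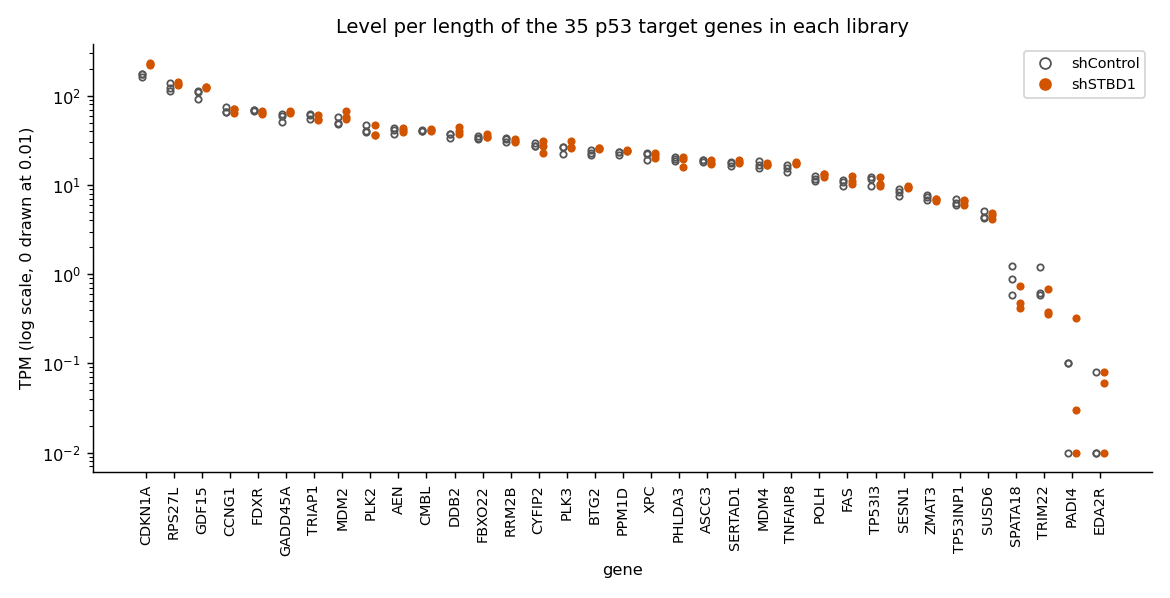
TPM (vertical axis, log scale, with 0 drawn at 0.01) of the 35 p53 targets in each library, ordered by their mean, with open circles for shControl and filled circles for shSTBD1. CDKN1A is the highest with a mean of 172 TPM in shControl and 228 TPM in shSTBD1, and 4 targets have means under 1 TPM.

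Per length the targets spanned a wide range of levels in these cells. CDKN1A was the most abundant, with 163, 178 and 174.5 TPM in the shControl libraries and 229, 230.4 and 223 TPM in the shSTBD1 libraries. RPS27L followed with 125 ± 12.7 TPM in shControl and 137 ± 6.04 TPM in shSTBD1, and GDF15 with 105 ± 11.7 and 125 ± 1.71 TPM (SD, n = 3 each). Every RPS27L library was above every GDF15 library of its group, though narrowly in shControl, where the lowest RPS27L library had 113 TPM and the highest GDF15 library 112 TPM. Another 24 targets had mean levels from 10 to 100 TPM, with CCNG1, FDXR and GADD45A at the top. SESN1, ZMAT3, TP53INP1 and SUSD6 lay between 1 and 10 TPM, and SPATA18, TRIM22, PADI4 and EDA2R were under 1 TPM. The higher targets were thus found at high levels (CDKN1A, GDF15) and at low ones (SESN1).

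The amount and activity of the p53 protein were not measured by these libraries. Of 26 regulators of p53 outside the list, 4 were higher (15.4%) and 3 were lower (11.5%), against 8.22% and 7.54% of all tested genes, with a median log2 fold change of -0.03. The highest were RCHY1, a ubiquitin ligase that acts on p53 (log2 fold change 0.45, SE 0.06, edgeR adjusted p = 1.2e-04), CHEK2, a kinase of the DNA damage checkpoint (0.27, SE 0.06, edgeR adjusted p = 0.0057), and PPP1R13B, an ASPP protein that binds p53 (0.21, SE 0.07, edgeR adjusted p = 0.049). The lower genes were the acetyltransferases EP300 (-0.20) and CREBBP (-0.16), which are coactivators of p53, and the methyltransferase KMT5A (-0.16), with edgeR adjusted p of 0.0038, 0.0073 and 0.013. With offsets for effective length RCHY1 remained called (0.56) and the other 5 did not. Under these offsets CHEK2 (0.24), KMT5A (-0.19) and EP300 (-0.31) had estimates of similar or larger size, whereas CREBBP (-0.05) and PPP1R13B (0.004) were close to 0.

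A further list of 36 p53-induced genes outside the 35 targets was read in the same way. Of its 34 tested genes 8 were higher (23.5%) and 2 were lower (5.88%), against 8.22% and 7.54% of all tested genes. In all 29.4% were called, against 15.8% of all tested genes, with a median log2 fold change of 0.04. PRDM1, a transcriptional repressor, rose most, with 0.95 on the log2 scale (SE 0.12, edgeR adjusted p = 6.6e-05) from means of 5.56 ± 1.02 to 10.7 ± 0.70 CPM (SD, n = 3 each). The call of PRDM1 held in all 6 fits that left out a library but not with offsets for effective length (log2 fold change 0.82, edgeR adjusted p = 0.13), and its lowest estimate over the alternatives was 0.58. SFN, the 14-3-3 sigma protein that holds the cell cycle in G2, rose by 0.30 (SE 0.03, edgeR adjusted p = 7.1e-06), and PERP, a desmosome protein with a part in cell death, rose by 0.29 (SE 0.03, edgeR adjusted p = 1.0e-05). Both SFN and PERP passed in all 8 other settings and in all 6 fits that left out a library. The cytokine LIF was lower (-0.34, SE 0.05, edgeR adjusted p = 1.1e-04). The call of LIF held in all 6 fits that left out a library and in 5 of the 8 other settings. It was lost with offsets for effective length (log2 fold change -0.35, edgeR adjusted p = 0.2). The receptor NOTCH1 was lower too (-0.12, SE 0.04, edgeR adjusted p = 0.046), a call that was lost in all 6 fits that left out a library and under DESeq2 (adjusted p = 0.11). SFN and PERP are also genes of epithelial cells, and some of the epithelial markers were higher as well. Of 10 colon epithelium markers 7 were tested and 5 were higher (KRT8, KRT18, KRT19, CDH1 and CLDN4). This was 71.4%, against 8.22% of all tested genes. EPCAM had a log2 fold change of 0.04 and CLDN3 one of -0.24, with every shSTBD1 library below every shControl library (edgeR adjusted p = 0.14), and the summed level of all 10 ran from 3445 to 3677 CPM in shControl and from 4084 to 4164 CPM in shSTBD1. Whether this has a part in the changes of the p53 targets was not tested.

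Genes that p53 represses through p21 and the DREAM complex, most of them for mitosis and DNA replication, did not fall together. Of 33 tested genes 3 were lower (9.09%) and 5 were higher (15.2%), against 7.54% and 8.22% of all tested genes, with a median log2 fold change of 0.00. The lower genes were FOXM1, a driver of mitotic transcription (-0.24, SE 0.04, edgeR adjusted p = 5.2e-04), the proliferation marker MKI67 (-0.20, SE 0.05, edgeR adjusted p = 0.013) and CENPF, a kinetochore protein (-0.17, SE 0.04, edgeR adjusted p = 0.0072). The largest increases were those of the transcription factor E2F1 (0.27, SE 0.06, edgeR adjusted p = 0.0089), PRC1, a protein of the central spindle (0.16, SE 0.03, edgeR adjusted p = 0.0037), and CDC20, an activator of the anaphase-promoting complex (0.13, SE 0.03, edgeR adjusted p = 0.0070). None of these 6 genes was called with offsets for effective length, although the estimates of FOXM1 (-0.25), MKI67 (-0.22), CENPF (-0.29), E2F1 (0.25) and CDC20 (0.12) were of similar or larger size, and that of PRC1 was 0.10. Of 8 tested inhibitors of cyclin-dependent kinases CDKN1A was the only one called, and CDKN1B, which encodes p27, had a log2 fold change of -0.06 (edgeR adjusted p = 0.41).

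A hairpin can act on other transcripts through a 7-base site in their 3′ UTR. The sites GTGTCAC and TGTCACG, which pair with the shControl hairpin, were in the 3′ UTR of 0 of the 33 tested targets, against 9.8% and 3.0% of 13036 tested genes with a 3′ UTR. The sites GATTTCT and TGATTTC, which pair with the shSTBD1 hairpin, were in 11 (33.3%) and 9 (27.3%) of the 33. The shares of those genes were 18.5% and 18.0%. A longer 3′ UTR is more likely to hold such a site, and these shares do not take its length into account. Of the called targets BTG2, MDM2 and SESN1 had GATTTCT, and MDM2 and SESN1 also TGATTTC, and all 3 were higher. The uncalled targets with GATTTCT had log2 fold changes of 0.16 (TNFAIP8), -0.01 (ASCC3, PHLDA3), -0.05 (MDM4), -0.06 (TRIAP1, XPC), -0.07 (ZMAT3) and -0.08 (CYFIP2). FBXO22, PPM1D and TP53INP1 had only TGATTTC and were at 0.03, 0.09 and 0.03. Over all tested genes with GATTTCT the median log2 fold change was -0.014, as it was with TGATTTC. A part of these sites in the results was not tested.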

How the data were processed

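RNA-seq libraries of 3 shControl and 3 shSTBD1 HCT116 samples were grouped by their labels. The authors aligned reads to hg38 with STAR 2.7.1a, using Ensembl gene models, and quantified genes with RSEM 1.3.1. The deposited expected counts were not normalized, and between 19.89% and 20.4% of those above 0 were not whole, so they were rounded. The TPM values were computed by the authors with RSEM from expected counts and effective lengths. The deposited FPKM and posterior mean columns were not used. Symbols were matched for 57754 of 58395 genes.

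Genes were filtered by filterByExpr of edgeR 4.0.16 (minimum count 10), scaled by TMM (factors 0.9786 to 1.009) and compared by the quasi-likelihood F-test (R 4.3.3) without a replicate term. Biological variation between replicates was 3.37%. CPM use the TMM-scaled library size. A standard error is the size of the log2 fold change over the root of its F statistic, and 95% intervals are 1.96 standard errors to each side. These intervals are somewhat narrower than the F-test implies. Those of PPM1D (0.006 to 0.171) and RPS27L (0.001 to 0.207) exclude 0, although their unadjusted edgeR p were 0.052 and 0.066. Intervals and standard errors cover only the spread between these 6 libraries. Scripts were tested on simulated data.

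Alternatives were DESeq2 1.42.0, DESeq2 size factors, library size, no filter on low counts, offsets for effective length, limma 3.58.1 on log2 of TPM plus 1 or 0.1, a replicate block and leaving out each library. The 35 targets, the other lists and the 7-base sites were chosen with earlier results of these data known, and no set test was run. All 35 targets and STBD1 are named, values per library are given for STBD1, CDKN1A, MDM2 and each target called, and from each other list at most 3 increases and 3 decreases are named. Cell type markers, the library values of FAS and the value of CDKN1B were added, those of FAS and CDKN1B after they were seen. A gene's exon overlap and the p53 matches come from GENCODE 44 on GRCh38, a later annotation than the one counted. A gene of each of 2 other lists is not reported here and was left out of the counts of its list.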

Additional observations from a re-analysis of the deposited data

How the results depend on the processing

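CDKN1A kept its direction and its call under all 14 alternatives. The number of p53 targets called was 11 in the main setting, 5 by DESeq2, 1 with effective-length offsets and 1 each with limma on log2(TPM + 1) and log2(TPM + 0.1), while all genes called were 512, 292 and 290 in the last 3. Leaving out 1 library gave 2 to 9 targets, a median log2 fold change of the targets from 0.021 to 0.081 and 1445 to 2614 genes in all. Without a filter on low counts, 2779 of 28225 genes were called. Fewer samples were left in the fits without a library, and the cause of the other differences was not tested. Signs turned as follows, none of these estimates passing the test. With library size as the scale ASCC3 was at 0.004. With effective-length offsets, limma on log2(TPM + 1) and limma on log2(TPM + 0.1), in that order, RRM2B was at -0.033, -0.041 and -0.042, TP53I3 at -0.053, -0.063 and -0.068, MDM4 at 0.024, 0.017 and 0.018, XPC at 0.027, 0.017 and 0.018, and CMBL at 0.042, 0.030 and 0.031. CCNG1 was at 0.007 with the offsets, and SUSD6 at -0.004 and -0.005 with limma. Over the fits without a library, the estimates that crossed 0 ran from -0.311 to 0.295 for SPATA18, -0.088 to 0.041 for PHLDA3, -0.031 to 0.021 for ASCC3, -0.018 to 0.119 for TP53I3, -0.013 to 0.089 for TP53INP1, -0.008 to 0.067 for SUSD6 and -0.00035 to 0.062 for AEN. Over the single genes, 362 estimates kept direction and call, 68 lost the call and 32 turned.

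Same-numbered libraries hardly deviated together, with correlations of 0.070, 0.035 and -0.002 for replicates 1, 2 and 3. Libraries of different numbers had a mean correlation of -0.017. With 3 libraries per group these values cannot show whether the numbers mark pairs. The replicate block called 11 targets with a median of 0.032, and 2579 genes in all, against 2453 in the main setting. At these depths EDA2R and PADI4, with at most 3 expected counts per library, could not be compared.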
